A study of Rattus norvegicus with 4 samples.

Results

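The genes described here encode the proteasome, its inducible form the immunoproteasome, and their activators, inhibitor and assembly factors. They were found by matching the RefSeq accession of each non-control probe to a rat gene symbol that begins with Psma, Psmb, Psmc, Psmd, Psme, Psmf or Psmg followed by a number. The rule found 47 of the 16581 named genes on the array, measured by 50 probes and 92 spots per array. Each of 44 genes had 1 probe, and Psmb6, Psmc1 and Psmg4 had several. A further 7 protein-coding genes of this naming family had no matched probe (Psmb11, Psmb3l1, Psmb3l2, Psmb6l1, Psmg1, Psmg3 and Psmg4l1), and none of 48 pseudogenes of the family had one. Psmc3ip and Psme3ip1 fit the rule by symbol alone: they encode partner proteins, not proteasome subunits.

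RNA came from NR8383, a rat macrophage line started from cells washed out of a normal lung, growing partly attached and partly afloat in medium with fetal bovine serum. NRCWE055 nanotubes (single-walled, carbon, pristine) had been on all 4 cultures for 4 h at a dose of 11 cm2/cm2, and the labels place the cells after 20 passages. The titles and treatment entries give NRCWE055 for every sample, whereas the source names of replicates 2, 3 and 4 read NRCWE056, NRCWE057 and NRCWE058; the titles were followed. The design calls for biological replicates with and without nanotubes, but the unexposed cultures are not analysed here, and nothing that follows measures a change caused by the nanotubes. What can be read is whether each gene was detected after exposure and how far 4 exposed cultures of a single line differed.

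The proteasome is the main protease for ubiquitin-tagged proteins in the cytosol and nucleus. Its 20S core is a barrel whose outer rings of alpha subunits (Psma genes) gate the entrance and whose inner rings of beta subunits (Psmb genes) hold the active sites, and the 19S cap (Psmc and Psmd genes) binds, unfolds and feeds in tagged proteins. Interferon gamma is known to induce replacement beta subunits and the PA28 activator, and cells of the immune system, macrophages among them, are known to carry immunoproteasomes that cut peptides for display on MHC class I.

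The arrays were not equal in brightness. The 75th percentile signal, over probes detected on all arrays, was 1756 on replicate 1, 2631 on replicate 2, 2861 on replicate 3 and 1873 on replicate 4. Levels are therefore given as the log2 processed signal less that percentile, so that a level of 0 equals it. A probe's brightness also depends on its sequence, so levels of different genes are not ranked. All 10 macrophage marker genes were detected on all arrays, as were 52.4% of all named genes. Of 27 measured markers of other cell types, 6 were detected on all arrays (Cd3d, Cd4, Lck, Pax5, S100a8 and Camp) and 17 on none. Among all 16581 named genes, 6895 were detected on no array. In bulk RNA, fewer cells that express a gene and less RNA per cell cannot be told apart.

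Transcripts of nearly the whole proteasome were measured in the exposed cells. Of the 47 genes, 46 (97.9%) were detected on each of the 4 arrays (most spots of a probe well above background), against 52.4% of all named genes. Both sets of catalytic subunits, all 6 measured Psmc genes, all 14 Psmd genes, all 4 Psme genes and Psmf1 were among them. The exception was Psma8, the alpha subunit known from testis. No spot of these genes was saturated.

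The 20S core exists in a constitutive and an inducible version, which differ in their catalytic beta subunits. Psmb6, Psmb7 and Psmb5 encode the constitutive subunits with caspase-like, trypsin-like and chymotrypsin-like activity, and Psmb9, Psmb10 and Psmb8 encode the immunosubunits that take their places. The RefSeq promoters of 43 of the 47 genes were searched on both strands for 8 short patterns, each promoter running from 250 bases before the gene's start to 50 after it. The pattern GAAANNGAAA, a form of the element bound by interferon regulatory factors, was in 7 of the 43 (16.3%) and in 3.63% of 19005 promoters of protein-coding genes. The pattern TGACNNNGC, the core of the antioxidant response element, was in 8 of the 43 (18.6%) and in 12.7% of all promoters. These patterns, and the windows printed here, were picked after the matches had been seen. The windows of 100 bases (GRCr8) set the first pattern, in genes of the inducible form, beside the second, in genes of the constitutive core. Capitals mark the match, which in Psmb8 reads on the opposite strand.

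Psmb8 (chr20:4657012-4657111, minus strand): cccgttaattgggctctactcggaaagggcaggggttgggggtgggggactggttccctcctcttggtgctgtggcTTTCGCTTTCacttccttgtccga
Psmb10 (chr19:50743283-50743382, minus strand): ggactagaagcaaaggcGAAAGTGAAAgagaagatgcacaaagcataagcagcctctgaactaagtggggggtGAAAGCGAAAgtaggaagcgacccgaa
Psme2 (chr15:33052750-33052849, minus strand): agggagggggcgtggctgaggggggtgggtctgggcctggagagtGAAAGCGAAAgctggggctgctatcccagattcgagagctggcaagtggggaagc
Psmb5 (chr15:32047386-32047485, minus strand): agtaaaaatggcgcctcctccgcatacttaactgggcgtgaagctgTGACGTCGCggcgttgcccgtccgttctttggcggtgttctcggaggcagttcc
Psmb6 (chr10:55737808-55737907, plus strand): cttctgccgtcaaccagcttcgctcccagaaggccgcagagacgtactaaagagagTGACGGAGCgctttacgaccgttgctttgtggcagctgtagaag

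The Psmb10 promoter held the interferon pattern 2 times, and the promoters of Psmb8 and Psme2 held it 1 time each. It was also found in Psma4, Psmb3, Psmd7 and Psmg4, and was not found in the searched windows of Psmb9 or Psme1. The antioxidant pattern was found in Psma3, Psmb2, Psmd1, Psmd3, Psmd9 and Psme4 besides Psmb5 and Psmb6, and was not found in the searched promoter of Psmb7. Of the other patterns, the shorter form TGANNNNGC was in 53.5% of the 43 promoters and 41% of all promoters, and the shorter form GAAANNGAA in 20.9% and 8.82%. The CCAAT box was in 51.2% and 38.4%, and the interferon gamma activated site TTCNNNGAA in 9.3% and 8.26%. An NF-kB site was in 11.6% and 8.18%, and its strict form GGGANTTTCC in none of the 43 and in 0.426% of all. A match is a string of letters and no measured binding, and its part in the levels below was not tested.

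The constitutive catalytic genes were detected on every array. Psmb5 gave processed signals of 25835, 36244, 40584 and 26735 on replicates 1 to 4, which after scaling were levels of 3.88, 3.78, 3.83 and 3.84, a mean of 3.83 ± 0.0390 (SD, n = 4). Psmb6 was read by a pair of probes, with signals of 12972, 20308, 21379 and 14462 on the first and 14215, 22223, 24827 and 15354 on the second. After scaling, Psmb6 stood at 2.95, 3.01, 3.01 and 2.99, a mean of 2.99 ± 0.0284 (SD, n = 4). Psmb7 gave signals of 7255, 9517, 11473 and 7572 and levels of 2.05, 1.85, 2.00 and 2.02, a mean of 1.98 ± 0.0855 (SD, n = 4). Replicate 2 was the low array for Psmb7, and without it the SD was 0.0232. With normexp background correction replicate 1 was the lowest array.

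The immunosubunits were also detected on every array, and Psmb10 had the largest SD of the catalytic genes. Psmb8 gave signals of 22531, 29743, 33563 and 22122 and levels of 3.68, 3.50, 3.55 and 3.56, a mean of 3.57 ± 0.0772 (SD, n = 4), highest on replicate 1. With normexp correction its SD was 0.0201 and replicate 1 was the lowest array. Psmb9 gave signals of 11331, 15661, 18063 and 11760 and levels of 2.69, 2.57, 2.66 and 2.65, a mean of 2.64 ± 0.0495 (SD, n = 4). Psmb10 gave signals of 5574, 12397, 13388 and 8062 and levels of 1.67, 2.24, 2.23 and 2.11, a mean of 2.06 ± 0.268 (SD, n = 4). Replicate 1 lay apart from the other arrays, and without it the SD of Psmb10 was 0.0741. Psmb10 has 1 probe printed once, so each of its values is a single spot. The same holds for Psmb5, Psmb7, Psmb9, Psma3, Psmc6, Psmd10, Psmd11 and Psme4, among others. Replicate 1 gave the lowest Psmb10 level under each of the 3 other scalings and under the other background correction that were tried.

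**Figure D1:**
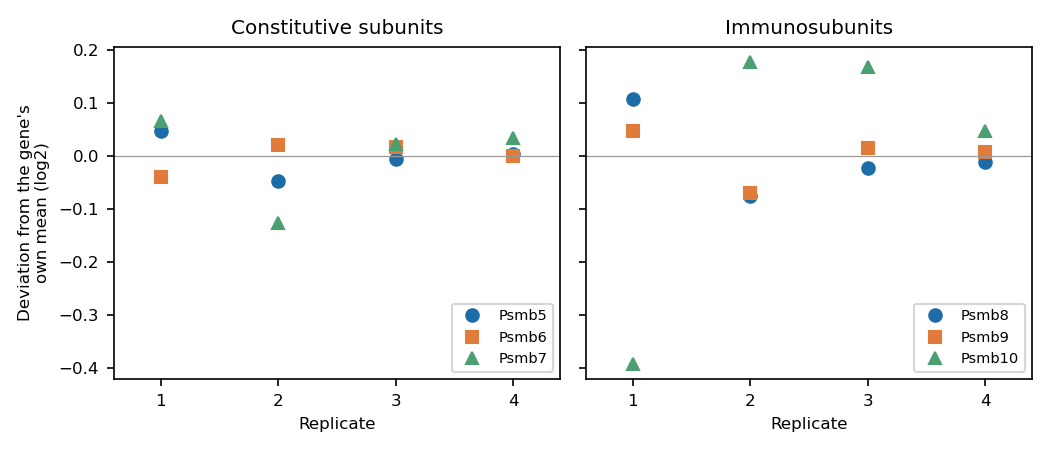
Each point is 1 array's deviation (log2) from the mean of that gene over the 4 arrays, for the constitutive catalytic genes Psmb5, Psmb6 and Psmb7 on the left and the immunosubunit genes Psmb8, Psmb9 and Psmb10 on the right. Psmb10 on replicate 1 lies 0.39 below its mean, and the other points lie between -0.13 and 0.18.

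Whether the inducible genes moved relative to the constitutive ones from culture to culture was asked within each array. The mean deviation of the 3 immunosubunits less that of the 3 constitutive genes was -0.10 on replicate 1, 0.06 on replicate 2, 0.04 on replicate 3 and 0.00 on replicate 4. The 4 arrays thus spanned 0.165 on the log2 scale, or 1.12-fold. Without replicate 1 the span was 0.0603. The pairs differed in sign on replicate 1, where Psmb8 less Psmb5 was 0.06, Psmb9 less Psmb6 0.09 and Psmb10 less Psmb7 -0.46. The negative mean on replicate 1 thus came from Psmb10. Subunit by subunit, Psmb8 less Psmb5 spanned 0.0878 over the arrays and Psmb9 less Psmb6 spanned 0.179. Psmb10 less Psmb7 spanned 0.762, or 1.70-fold, with Psmb10 low on replicate 1 and, under this processing, Psmb7 low on replicate 2. With 1 group of 4 arrays no test of these spans was made.

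The activators bind the ends of the core in place of the 19S cap. Psme1 and Psme2 encode the PA28 alpha and beta subunits, which form 1 ring together and are induced by interferon gamma. Psme1 stood at 3.89, 3.88, 3.87 and 3.91, a mean of 3.89 ± 0.0187 (SD, n = 4), from signals of 26115, 38608, 41891 and 28200. Psme2 stood at 4.22, 4.26, 4.24 and 4.25, a mean of 4.24 ± 0.0171 (SD, n = 4), from signals of 32706, 50362, 54213 and 35689. The difference between these partners varied by 0.0587 over the arrays. With quantile normalization the SD of Psme2 was 0.0840. Both probes were printed 10 times on each array.

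The other activators and the regulator Psmf1 were detected on every array. Psme3, the nuclear PA28 gamma, gave levels of -0.01, 0.06, 0.15 and 0.22, a mean of 0.10 ± 0.102 (SD, n = 4). Psme4, the activator PA200, was dim, with signals of 78.5, 96.9, 116 and 62.6 against a lowest detected signal of 15.6 to 15.9 per array. Its levels were -4.48, -4.76, -4.62 and -4.90, a mean of -4.69 ± 0.182 (SD, n = 4). Psmf1, known as the proteasome inhibitor PI31, gave levels of 1.23, 1.15, 1.18 and 1.13, a mean of 1.17 ± 0.0438 (SD, n = 4).

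The alpha ring genes showed both the smallest SD with this processing and one of the largest. Psma5 gave levels of 2.50, 2.50, 2.51 and 2.51, an SD of 0.00565 over the arrays, the smallest of the 46 genes with this processing and 0.0439 with normexp background correction. Its 2 spots per array had SDs of 0.114, 0.0542, 0.0684 and 0.0199 on replicates 1 to 4. Each of these exceeds the SD between arrays, so that agreement is closer than the spots can resolve. Psma3 gave signals of 216, 479, 444 and 298 and levels of -3.02, -2.46, -2.69 and -2.65, an SD of 0.235, and of 0.131 without replicate 1. As with Psmb10, the low array for Psma3 was replicate 1. The median SD of the 7 detected Psma genes was 0.0731. The beta subunits without an active site (Psmb1, Psmb2, Psmb3 and Psmb4) had a median SD of 0.0474. With this processing Psmb3 varied most of them, at 4.41, 4.32, 4.35 and 4.49 (SD 0.0775), and Psmb4 least, at 3.82, 3.77, 3.78 and 3.79 (SD 0.0216). These SDs rest on unequal numbers of spots: Psmb4 was printed 10 times per array, Psmb2 and Psmb3 2 times and Psmb1 1 time. With normexp correction Psmb1 varied most (0.114 against 0.0445 for Psmb3).

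Psma8 encodes the alpha subunit that takes the place of Psma7 in the core of male germ cells. Its only probe gave signals of 6.33, 20.9, 15.9 and 5.36 and was well above background on replicate 2 alone. The lowest signal counted as detected was 15.6, 15.6, 15.9 and 15.8 on replicates 1 to 4, and Psma8 passed it on replicate 2 only. The germ cell markers Ddx4, Sycp3 and Dazl were detected on no array. A looser flag, which asks only that a signal be positive and significant, marked Psma8 on all 4 arrays.

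The 19S cap was detected in full among the genes measured. The Psmc genes encode the ring of ATPases that unfolds substrates. With this processing Psmc2 had the smallest SD, at 3.20, 3.15, 3.14 and 3.12 (SD 0.0319), and Psmc6 the largest, at -3.77, -3.56, -3.70 and -3.64 (SD 0.0910). Psmc6 was dim, with signals of 129, 224, 221 and 151. The level of Psmc1 rests on a pair of probes whose means lay 2.52 apart on the log2 scale, and its value depends on which is read.

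The Psmd genes encode the non-ATPase subunits of the cap and some of its assembly chaperones. Psmd1, a scaffold of the base, had the smallest SD with this processing, at 3.36, 3.35, 3.34 and 3.31 (SD 0.0219). With quantile normalization, with normexp correction and without replicate 1, Psmd8 had a smaller SD than Psmd1 (0.0228 against 0.0370, 0.0300 against 0.0678, and 0.00911 against 0.0254). Psmd10, the base chaperone also called gankyrin, varied most of all 46 genes with this processing. Its signals were 40.3, 93.8, 82.4 and 65.5 and its levels -5.44, -4.81, -5.12 and -4.84 (SD 0.296), lowest on replicate 1, and the SD was 0.177 without it. With normexp correction its SD was 0.182, replicate 3 was lowest, and Psmb10 had a larger SD, 0.336. Psmd11, a lid subunit, lay close together on replicates 1 to 3, at -0.59, -0.59 and -0.60, and at -0.50 on replicate 4. By Dixon's ratio for an array apart from the rest it was 1 of 46 genes past the 95% value, against 6.13% of all detected genes. The median SD was 0.0676 for Psmc and 0.0574 for Psmd.

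The Psmg genes encode chaperones that build the alpha ring. Psmg2 stood at -1.03, -0.93, -0.93 and -0.87 (SD 0.0655). Without replicate 1 that SD was 0.0350. Psmg4 stood at 1.38, 1.23, 1.15 and 1.16 (SD 0.104, and 0.0485 without replicate 1) on the probe that was detected, with signals of 4557, 6153, 6340 and 4197. Its other probe, matched to a predicted transcript, gave 3.75, 3.33, 7.86 and 5.30 and was detected on no array, so the Psmg4 level is that of 1 probe. The partner proteins matched by symbol alone, Psmc3ip and Psme3ip1, were detected on all arrays with SDs of 0.0644 and 0.139.

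**Figure D2:**
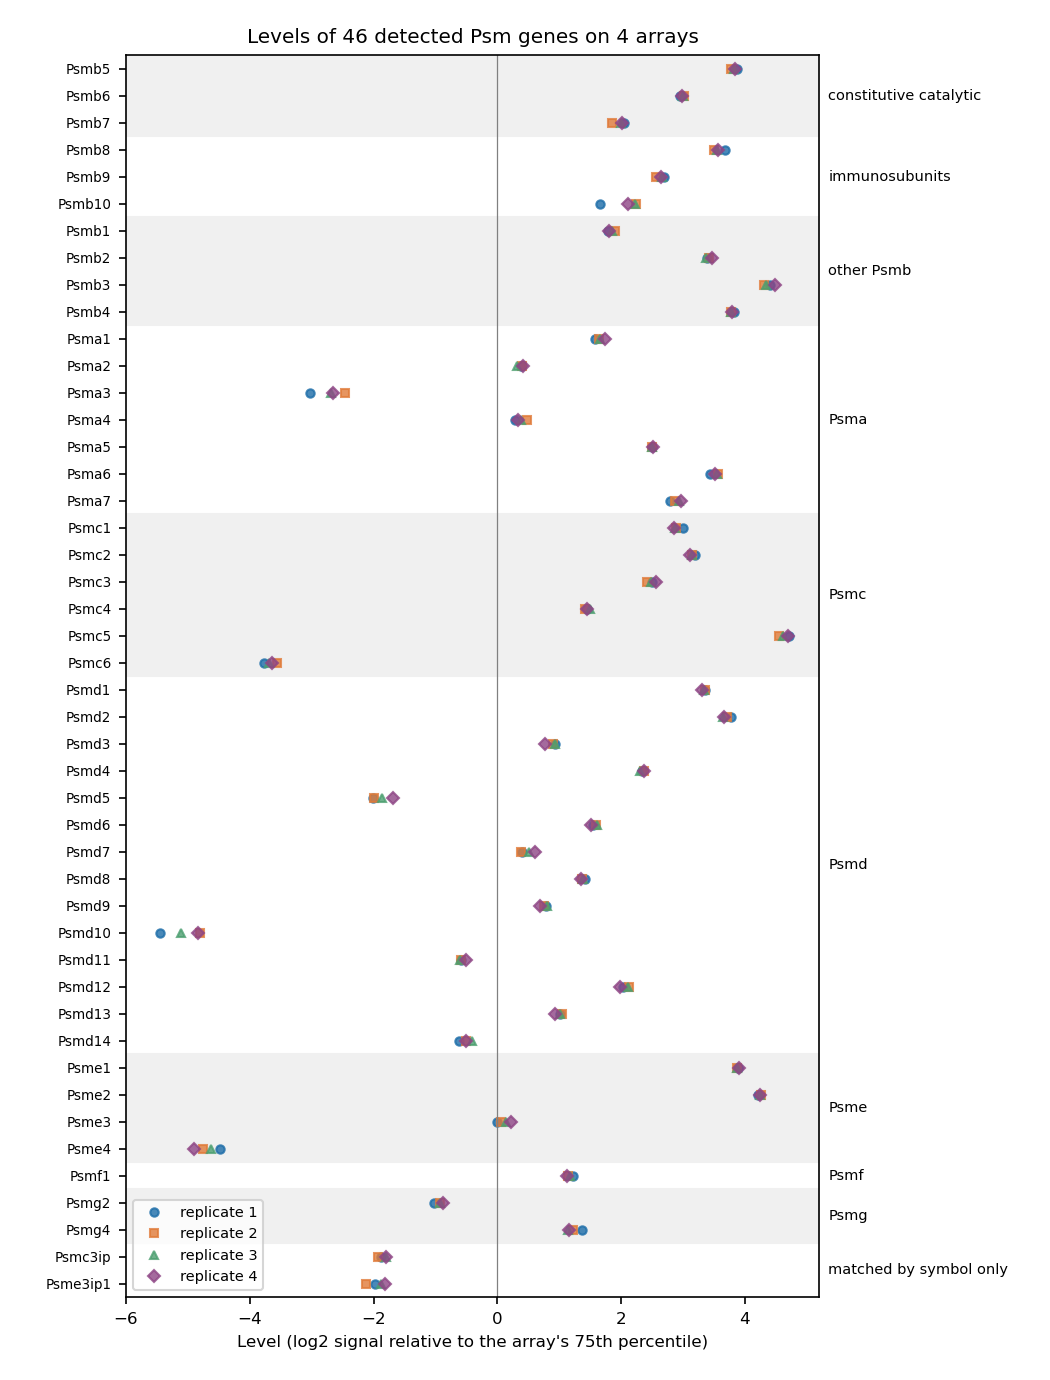
Levels (log2 signal relative to each array's 75th percentile) of the 46 detected genes, 1 point per array, in blocks by role. Points of a gene mostly overlap, and the widest rows are Psmd10, Psmb10 and Psma3, each lowest on replicate 1 (for Psmd10 not with normexp correction); levels of different genes are not comparable.

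Across the 46 genes, the median SD over the 4 arrays was 0.0644 on the log2 scale, or 1.05-fold, against 0.0926 over all 8685 detected genes. The SD was under the median of all genes for 37 of 46 (80.4%). Bright genes vary less on an array, and 36 of the 46 had a mean level above 0, against 27.1% of all detected genes. Split at that level, a split made after the values were seen, the 36 bright proteasome genes had a median SD of 0.0528 against 0.0659 over 2351 bright genes. The 10 at or below 0 had 0.115 against 0.107 over 6334 genes. None of the 46 spanned more than 2-fold between its highest and lowest array, and 1.11% of all detected genes did. A mean of 4 arrays at the median SD carries a 95% interval of 0.103 on either side, against 0.427 for Psmb10.

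**Figure D3:**
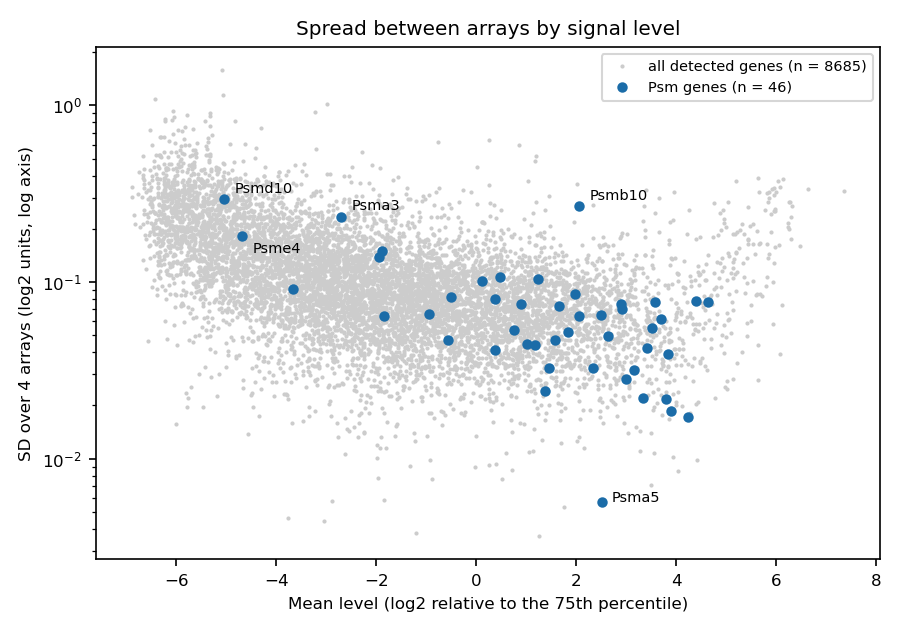
Each point is a detected gene, with its mean level on the x axis and its SD over 4 arrays on a log y axis, for all 8685 genes in grey and the 46 proteasome-family genes in blue. Most blue points lie at the bright end, with Psmb10 high among bright genes (SD 0.268) and Psma5 low (SD 0.00565).

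Some probes were printed several times per array, which allowed a test of whether arrays differed beyond spot noise. With limma's moderated F test and Benjamini-Hochberg adjustment over 1742 such probes, 1 of the 10 proteasome probes tested passed 0.05, against 42.8% of all probes tested. That background divides by the number of spots: 65.7% of probes printed 10 times and 9.09% of those printed 2 times. Among the proteasome probes, 1 of 4 printed 10 times and 0 of 6 printed 2 times were called. The one called was Psma7, a structural alpha subunit, at 2.80, 2.87, 2.94 and 2.96, a span of 0.166 or 1.12-fold (limma adjusted p = 0.00154). It lost its call without replicate 1 (limma adjusted p = 0.204) and under normexp background correction (0.761). The share called over all probes tested also fell in those settings, to 30% and 12.7%. Psmb4, Psme1 and Psme2, also printed 10 times, spanned 0.0498, 0.0401 and 0.0391 (limma adjusted p = 0.747, 0.762 and 0.771). Psmb8, printed 2 times, spanned 0.183 (limma adjusted p = 0.144). The test compares arrays over spots, so culture, labelling and hybridisation cannot be told apart in it.

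**Figure D4:**
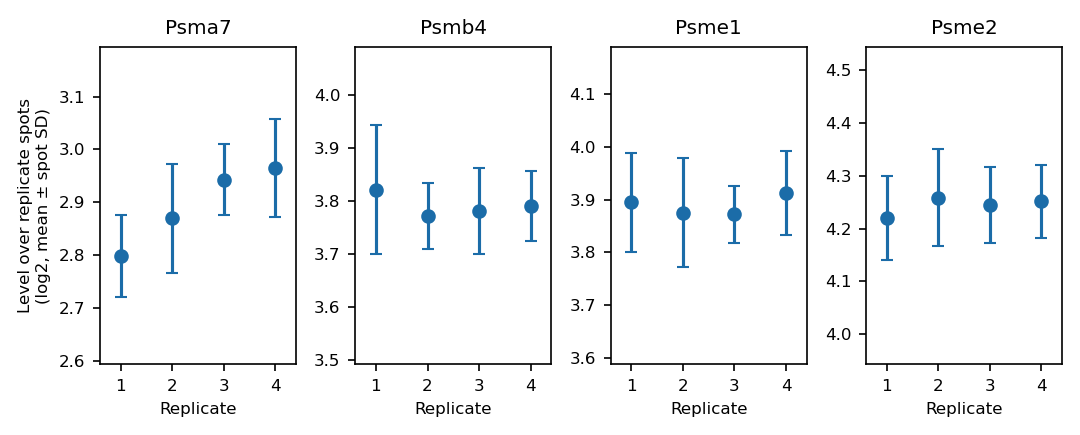
Mean level over the 10 replicate spots of each probe, with bars of 1 SD over those spots, for Psma7, Psmb4, Psme1 and Psme2 by replicate (log2; the panels share one scale length, not one centre). Psma7 spans 0.166 between arrays, and the other 3 span 0.0391 to 0.0498.

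The partners of the proteasome were mostly measurable too, and their counts stand beside the 52.4% of all named genes detected. All 7 measured cofactors were detected, among them Pomp, the maturation factor of the core, at 3.95 ± 0.0280 (SD, n = 4), and Sem1, a small lid subunit, at 3.90 ± 0.0194 (SD, n = 4). All 10 ubiquitin and shuttle genes were detected. Of 7 measured genes that control proteasome supply, 6 were detected, including Nfe2l2, an activator of antioxidant genes, at 0.31 ± 0.0622 (SD, n = 4). Ddi2, the protease known to activate the proteasome regulator Nfe2l1, was detected on no array, and Nfe2l1 itself had no matched probe.

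Of the 13 genes measured on a list of interferon signalling genes, 10 (76.9%) were detected on all arrays, against that 52.4%. The receptor gene Ifngr1 stood at 1.80 ± 0.142, the kinase gene Jak1 at -0.30 ± 0.0446 and the transcription factor gene Irf1 at 0.11 ± 0.0501 (SD, n = 4 each). Ifng, the ligand, was detected on 1 array, and Ciita and Socs1 on none. All 9 measured genes of class I peptide loading were detected on all arrays. None of the 42 detected genes on these 5 lists spanned more than 2-fold between arrays, against the 1.11% given above.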

How the data were processed

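Total RNA of 4 exposed NR8383 cultures was labelled with Cy3 and hybridised to 1-colour Agilent arrays, 1 array per culture. The authors extracted the scans with Feature Extraction 11.0.1.1 by Agilent (file headers). The deposited processed signal is an intensity from which background and spatial trend had been removed array by array, per the file headers, with no scaling between arrays. Deposited flags of 0 or 1 give detection, saturation and outlier spots.

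Control and outlier spots were left out, log2 signals averaged over spots of a probe, and each array's 75th percentile over 17807 probes detected on all 4 arrays subtracted. Detection of a probe required the well-above-background flag on over 50% of its usable spots. Levels of genes with several detected probes are their mean. Accessions were matched to rat symbols of GRCr8, and promoters are RefSeq's. limma 3.58.1 in R 4.3.3 tested arrays over replicate spots, after a check on simulated data. Alternatives were other scalings, normexp correction, detection rules, probe choice and each replicate left out. The plan named raw spot signals for normexp; deposited median intensities were used, with an offset of 50.

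Genes named with per-array values were fixed by role (catalytic subunits, Psme, Psmf1), by detection, by Dixon's ratio, or as largest and smallest SD of a group. The genes and lists were chosen with earlier results of these data known.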

Additional observations from a re-analysis of the deposited data

Results flagged for a closer look

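In groups of 4 arrays, 1 array lay apart from the other 3 by Dixon's ratio for 8 of 104 genes examined, where chance gives about 1 in 20, or 5.2. The same ratio was passed by 6.13% of all detected genes, so 8 of 104 is near the background. Split by set, it was passed by 1 of 46 proteasome genes, where chance gives 2.3. Among 58 other listed genes 7 passed it, where chance gives 2.9. The proteasome gene was Psmd11, which stood at -0.50 on replicate 4. On replicate 4, Txnl1, a thioredoxin bound to the 26S proteasome, stood at -1.12 against -1.43 to -1.40 on the others. Ubqln1, a ubiquitin shuttle, stood at 1.43 on replicate 4 against 1.56 to 1.57, and Irf9 at -2.14 against -2.32 to -2.30. On replicate 1, the peptide transporter gene Tap2 stood at 0.45 against -0.01 to 0.03, and B2m, the class I light chain, at 4.73 against 4.50 to 4.53. The excess of B2m on replicate 1 over the mean of the others, 0.20, was 0.01 with normexp correction and 0.07 with quantile normalization, where replicate 3 was highest. Also on replicate 1, the macrophage gene Fcgr2b stood at 1.44 against 1.59 to 1.61, and Cd4 at -3.22 against -3.90 to -3.81.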

How the results depend on the processing

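The count of detected genes stayed at 46 or 47 under its 7 alternatives. The median SD of 0.0644 was 0.0713 with normexp and 0.0568 with quantile normalization, and 0.0527 to 0.0656 with each replicate left out. No gene spanned over 2-fold except Psma8, which made the count 1 under the looser detection flag and 1 when dim probes were kept. Over all genes kept in those settings, 777 of 10158 and 2485 of 16581 spanned over 2-fold. The count of probes differing between arrays was 0 with normexp and 2 with quantile normalization, which added Psme2 (limma adjusted p = 0.000512), and 0 to 1 with each replicate left out, 0 without replicate 1. The share of all probes tested that were called was 12.7% with normexp, 48.7% with quantile normalization and 30% without replicate 1. The span of the immunosubunit less constitutive difference was 0.245 with normexp and 0.0603 to 0.165 with each replicate left out, lowest without replicate 1. The cause of these shifts was not tested. No paired analysis was possible because all samples belong to 1 group. Signal over background limits Psma8, Psme4 and Psmd10, and 4 arrays limit every SD. Psma3 and Psmc6 are also among the 10 genes with a mean level at or below 0, whose median SD was 0.115 against 0.0528 for those above 0.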

Other observations

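In the gene table, Tap2, Psmb8, Tap1 and Psmb9 lie next to one another, and Psme1 and Psme2 are parted by Emc9 alone. These neighbours were compared after their values had been seen. On replicate 1, Tap2 was 0.44, Tap1 0.26, Psmb8 0.14 and Psmb9 0.06 higher (log2) than the mean of the other arrays, and replicate 1 was the highest array for each of the 4, as it was for 26% of all detected genes. B2m and Lnpep, of the class I list but not among these neighbours, were also highest on replicate 1, by 0.20 and 0.15. The rest of that list was not: Tapbp, Tapbpl, Pdia3 and Calr were highest on replicate 4 and Canx on replicate 3. On replicate 1, Tapbp differed from the mean of the other arrays by 0.01, Tapbpl by -0.07, Pdia3 by 0.01 and Canx by -0.05. The excess of B2m was 0.01 with normexp correction. With normexp correction the Psmb8 difference turned to -0.03, while those of Tap2, Tap1 and Psmb9 were 0.44, 0.35 and 0.09. Psmb10, which lies on another chromosome, was 0.52 lower on replicate 1, and Calr, a chaperone of class I loading, was 0.37 lower. Psme1 differed by 0.01 and Psme2 by -0.03.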
